A study of Homo sapiens with 9 samples.

Results

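The genes described here encode CD80, CD86 and CD83 and the related costimulatory or coinhibitory ligands ICOSLG, CD274 and PDCD1LG2, in BL2 cells, an established human Burkitt lymphoma line. Members were all probe sets of the array whose platform annotation names exactly 1 gene and that gene is one of these 6. They are 16 of the 54613 probe sets tested, which name 19775 genes: 3 probe sets for CD80, 3 for CD86, 1 for CD83, 5 for ICOSLG, 2 for CD274 and 2 for PDCD1LG2. The rule goes by gene name, and every member probe set entered the tests. The cells were stimulated with 200 ng/ml recombinant soluble human CD40L for 6 hrs, stimulated with 1 μM lipopolysaccharide (LPS) of Escherichia coli for 6 hrs, or left untreated as control. The labels give no incubation time for the control cells, so whether it was also 6 hrs is not known. Helper T cells use CD40L to signal into B cells by way of CD40. LPS, a component of the outer membrane of Gram-negative bacteria, signals by way of TLR4. RNA was hybridised to HG-U133 Plus 2.0 arrays, with 3 arrays per condition and 1 array of each condition in each of 3 experimental batches, 9 in all. All cells are of the 1 line, so the spread is that between experiments with 1 tumour's cells and not between individuals, and mRNA was measured and not surface protein.

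CD80 and CD86 are the B7 molecules with which antigen-presenting cells, B cells among them, engage CD28 and CTLA4 on T cells, so that a T cell receives a second signal besides antigen. CD83 is an immunoglobulin superfamily surface protein used as a marker of mature dendritic cells and of activated and light zone germinal centre B cells, and it protects CD86 and MHC class II from ubiquitin-dependent removal from the surface. ICOSLG engages ICOS, mainly on follicular helper T cells, while CD274 (PD-L1) and PDCD1LG2 (PD-L2) engage the inhibitory receptor PD-1. The paper gives activation of NF-κB by CD40L and by LPS as known from different cell systems. In BL2 cells it also measured NF-κB activation, and reports that of its stimuli CD40L activated the canonical and non-canonical pathways most strongly. CD80, CD86 and CD83 are commonly used as activation markers of B cells.

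The stretches directly upstream of the start sites of CD83, CD86 and CD80 are shown because these 3 genes carry the differences reported below. They are RefSeq promoter windows of GRCh38.p14, 250 bases each, written 5′ to 3′ on the strand of the gene. Capitals mark matches to the NF-κB consensus, searched on both strands, and adjoining or overlapping matches form 1 run of capitals.
CD83, chr6:14117522-14117771, plus strand: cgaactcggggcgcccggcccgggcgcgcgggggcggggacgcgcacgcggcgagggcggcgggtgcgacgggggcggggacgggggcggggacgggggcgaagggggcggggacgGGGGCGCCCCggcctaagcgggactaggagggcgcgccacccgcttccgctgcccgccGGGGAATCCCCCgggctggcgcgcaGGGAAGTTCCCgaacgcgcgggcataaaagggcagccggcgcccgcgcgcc
CD86, first window, chr3:122055112-122055361, plus strand: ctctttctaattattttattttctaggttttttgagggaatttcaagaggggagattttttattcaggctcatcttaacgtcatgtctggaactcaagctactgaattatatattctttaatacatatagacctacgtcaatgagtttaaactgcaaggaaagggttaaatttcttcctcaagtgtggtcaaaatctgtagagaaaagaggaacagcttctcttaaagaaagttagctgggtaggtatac
CD86, second window, chr3:122077534-122077783, plus strand: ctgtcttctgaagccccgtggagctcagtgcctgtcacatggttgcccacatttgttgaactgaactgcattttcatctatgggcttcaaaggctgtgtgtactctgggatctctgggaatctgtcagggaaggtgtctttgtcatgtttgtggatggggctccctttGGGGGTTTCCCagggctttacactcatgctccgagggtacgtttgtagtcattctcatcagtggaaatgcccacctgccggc
CD80, chr3:119559615-119559864, minus strand: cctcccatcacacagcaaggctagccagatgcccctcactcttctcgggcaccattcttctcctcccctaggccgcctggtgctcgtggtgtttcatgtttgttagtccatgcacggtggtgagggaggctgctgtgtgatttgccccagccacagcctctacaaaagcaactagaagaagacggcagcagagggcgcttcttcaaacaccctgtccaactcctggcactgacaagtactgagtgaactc
The CD83 window held 6 matches in 3 separate runs, of which the nearest began 51 bases before the start site, and its GC content was 83.2%. A second CD83 window at chr6:14117006-14117255, with a GC content of 34.8%, held 0 matches. The second CD86 window held 2 overlapping matches, beginning 82 and 81 bases before its start site, and the first CD86 window and the CD80 window held 0. Over all 35116 windows of the same length, 9.96% held at least 1 match. The ICOSLG window held 0, and the CD274 window held 0 matches to the NF-κB consensus but 2 overlapping ones to the interferon-stimulated response element, searched as a pair of GAAA with any 2 bases between them (found in 3.02% of windows), and 1 to the gamma-activated site (TTCNNNGAA, 6.57%). Both were searched on both strands, and the matches of one did not overlap those of the other. A match describes the letters of a window and does not show that a factor binds there.

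Levels are given on a generalised log2 scale, which approaches log2 at high signal and flattens at low signal, so that a difference at a low level understates the fold change. Array medians lay between 6.42 and 6.47, and replicates of a condition correlated at 0.994 to 0.997 across probe sets. Differences were tested with limma over all probe sets, with condition and batch as terms, and a probe set was called where the p-value adjusted after Benjamini and Hochberg over all 54613 was at most 0.05. The comparisons of CD40L and of LPS with control use the same 3 control arrays, and the comparison of CD40L with LPS uses the arrays of both. All CD40L arrays lay above all control arrays on 4965 of the 54613 probe sets and below them on 3971. For LPS against control these numbers were 3824 and 3484, and for CD40L against LPS 2785 and 2222. A lack of overlap between conditions is therefore not by itself evidence of a difference. A gene's brightest probe set is the one with the highest mean level over the 9 arrays and serves only to choose which probe set stands for the gene, since each has its own probes.

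Among the members, CD83 and CD86 were lower after CD40L and 1 probe set of CD80 was higher. Of 16 member probe sets, 4 were called lower after CD40L, against 1.87% of all probe sets, and 1 was called higher, against 3.71%. After LPS, 2 were called lower, against 0.892% of all probe sets, and 0 higher, against 1.17%. Between CD40L and LPS, 1 was called lower after CD40L, against 0.0952%, and 0 higher, against 0.3%. Probe sets of 1 gene share their transcript, so the counts stand for fewer genes than probe sets: CD83, CD86 and CD80 after CD40L, CD86 after LPS, and CD83 between the stimuli. The median log2 fold change of the 16 was −0.045 for CD40L, −0.037 for LPS and −0.013 between CD40L and LPS, against 0.0050, 0.0029 and 0.0049 over all probe sets.

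CD83 is measured by 1 probe set, 204440_at. Its levels were 9.01, 8.88 and 8.81 after CD40L, 9.91, 9.84 and 9.86 after LPS, and 10.05, 9.97 and 9.72 in control cells of batches 1 to 3. All 3 CD40L arrays lay below all LPS and control arrays, while the LPS and control arrays overlapped. The mean was 8.90 ± 0.10 after CD40L, 9.87 ± 0.037 after LPS and 9.91 ± 0.17 in control cells (SD, n = 3 each). CD83 fell by 1.02 on the log2 scale after CD40L (95% interval −1.15 to −0.88, limma adjusted p = 9.52e-08), which is 2.02-fold lower. Only 6 probe sets of the array had a lower log2 fold change after CD40L, as CD83 took rank 7 from the lowest of 54613. Within the batches the log2 fold change was −1.05, −1.09 and −0.91, so the fall was seen in each of them. After LPS the log2 fold change of CD83 was −0.041 (95% interval −0.17 to 0.092, adjusted p = 0.905), and its sign differed between batches. The direct comparison gave −0.98 for CD40L minus LPS (95% interval −1.11 to −0.84, adjusted p = 3.33e-06), the lowest log2 fold change of any probe set in that comparison. CD83 was called in both comparisons in 20 of 20 alternative settings. The CD83 window with 6 NF-κB matches printed above belongs to a gene whose mRNA was lower after CD40L.

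CD86 is measured by 3 probe sets, and on all 3 the order of the conditions was CD40L lowest, LPS next and control highest. The levels of 210895_s_at, the brightest, were 7.87, 7.92 and 7.90 after CD40L, 8.18, 8.08 and 8.19 after LPS, and 8.54, 8.60 and 8.49 in control cells. The 3 conditions did not overlap. The probe set 205685_at gave 7.35, 7.42 and 7.50 after CD40L, 7.53, 7.52 and 7.63 after LPS, and 7.83, 7.90 and 7.98 in control cells. Here too the arrays of each condition lay apart from those of the next, with CD40L and LPS close to each other. The probe set 205686_s_at gave 7.091, 7.224 and 6.998 after CD40L, 7.352, 7.291 and 7.365 after LPS, and 7.529, 7.639 and 7.545 in control cells, again with no overlap. Across the 9 arrays, after subtraction of each batch's mean, the 3 probe sets correlated pairwise at 0.94 to 0.99. This correlation includes the differences between conditions.

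After CD40L, CD86 was called lower on each probe set. The log2 fold change was −0.65 on 210895_s_at (SE 0.059, adjusted p = 4.44e-06), which is 1.57-fold lower, −0.47 on 205685_at (SE 0.054, adjusted p = 4.69e-05) and −0.47 on 205686_s_at (SE 0.063, adjusted p = 0.000226). All 3 were called in 20 of 20 alternative settings, and all were lower in each batch. After LPS, 210895_s_at fell by 0.39 (SE 0.059, adjusted p = 0.00183), which is 1.31-fold lower, and was called in 20 of 20 settings. The probe set 205685_at fell by 0.34 (SE 0.054, adjusted p = 0.00291), but without replicate 1 its adjusted p was 0.053 and without replicate 3 it was 0.073. On 205686_s_at the log2 fold change was −0.24 after LPS (95% interval −0.37 to −0.10) with an adjusted p of 0.0702.

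Whether CD86 was called between the stimuli depended on the fit. The log2 fold changes for CD40L minus LPS were −0.25 on 210895_s_at (95% interval −0.38 to −0.13, limma adjusted p = 0.112), −0.13 on 205685_at (−0.25 to −0.017, adjusted p = 0.888) and −0.23 on 205686_s_at (−0.36 to −0.098, adjusted p = 0.257). All 3 were lower after CD40L in 3 of 3 batches. With the CD40L and LPS arrays alone in the fit, 210895_s_at (adjusted p = 0.0128) and 205686_s_at (adjusted p = 0.0464) were called.

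**Figure D1:**
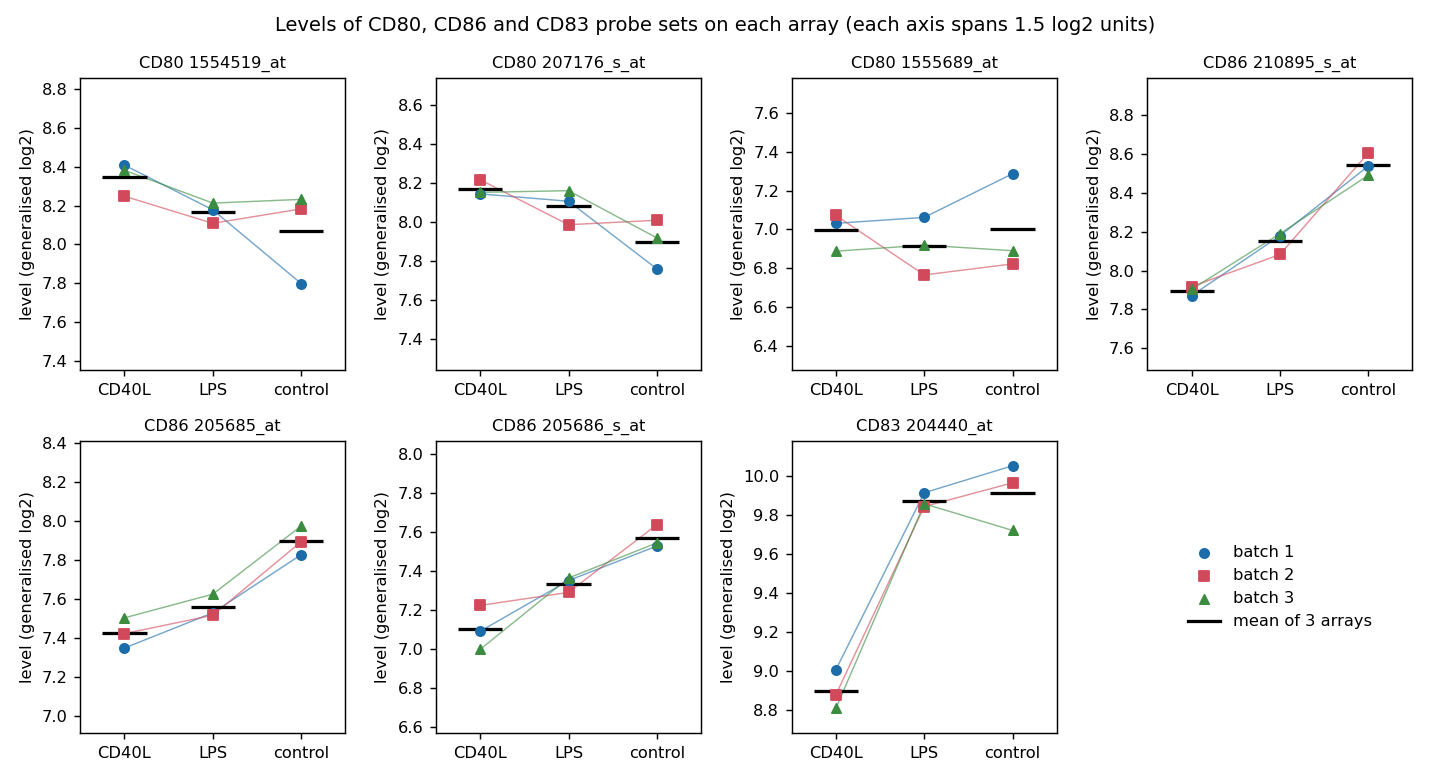
Level (generalised log2) of each CD80, CD86 and CD83 probe set on each of the 9 arrays by condition. Points are arrays, lines join arrays of 1 batch, bars are means of 3 arrays, and each vertical axis spans 1.5 log2 units. The 3 CD40L arrays of CD83 lie at 8.81 to 9.01, below the LPS and control arrays, and CD86 210895_s_at lies lowest after CD40L and highest in control cells.

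The 3 probe sets of CD80 did not move together. The levels of 207176_s_at were 8.15, 8.22 and 8.15 after CD40L, 8.11, 7.99 and 8.16 after LPS, and 7.76, 8.01 and 7.92 in control cells. The CD40L arrays lay above all control arrays, while the LPS arrays overlapped both. It rose by 0.28 on the log2 scale after CD40L (95% interval 0.13 to 0.42, limma adjusted p = 0.0234), which is 1.21-fold higher, with 0.39, 0.21 and 0.23 in batches 1 to 3. The call was kept in 11 of 20 alternative settings. It was lost without the batch term (adjusted p = 0.0591), after quantile normalization (0.0946), without replicate 1 (0.271) or 3 (0.113), and when any 1 CD40L array or control array 1 or 3 was left out (0.0587 to 0.167).

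The probe set 1554519_at had 8.41, 8.25 and 8.38 after CD40L, 8.18, 8.11 and 8.21 after LPS, and 7.80, 8.18 and 8.23 in control cells. The CD40L arrays were above the LPS and control arrays, with CD40L array 2 within 0.07 of its batch's control, and the control array of batch 1 was the lowest of the 9. Its log2 fold change after CD40L was 0.27 (95% interval 0.096 to 0.45, adjusted p = 0.0746). It was 0.61 in batch 1 against 0.065 and 0.15 in batches 2 and 3. Single batches and arrays moved this value in both directions. It was 0.11 without replicate 1 (adjusted p = 0.701), 0.12 without control replicate 1 (adjusted p = 0.473) and 0.18 without CD40L replicate 1 (adjusted p = 0.439), and it was 0.38 and called without replicate 2 (adjusted p = 0.00432). The probe set 1555689_at had 7.03, 7.07 and 6.89 after CD40L, 7.06, 6.77 and 6.92 after LPS, and 7.29, 6.82 and 6.89 in control cells, all overlapping. There the control array of batch 1 was the highest, and the log2 fold change after CD40L was −0.0027 (95% interval −0.17 to 0.16, adjusted p = 0.996). Across the 9 arrays, after subtraction of each batch's mean, 1554519_at and 207176_s_at correlated at 0.81, whereas 1555689_at correlated with them at −0.45 and −0.13. The files do not show which transcripts of CD80 each probe set detects.

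After LPS none of the CD80 probe sets was called. The log2 fold changes were 0.19 on 207176_s_at (95% interval 0.045 to 0.33, adjusted p = 0.225), 0.095 on 1554519_at (−0.084 to 0.27, adjusted p = 0.786) and −0.084 on 1555689_at (−0.25 to 0.083, adjusted p = 0.804). On 207176_s_at the value was 0.11 without replicate 1 (adjusted p = 0.833) and 0.12 without control replicate 1 (adjusted p = 0.598), and it was 0.30 and called without replicate 2 (adjusted p = 0.0179). For CD40L minus LPS the intervals of the 3 probe sets reached from −0.086 to 0.36, and none was called (adjusted p = 0.999 each).

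Both CD80 and CD86 bind CD28 and CTLA4, so their changes were also set against each other within a batch. The log2 fold change of CD80 207176_s_at exceeded that of CD86 210895_s_at by 1.05, 0.89 and 0.82 in batches 1 to 3 after CD40L (mean 0.92 ± 0.12, SD, n = 3) and by 0.71, 0.50 and 0.54 after LPS (mean 0.58 ± 0.11, SD, n = 3). With 1554519_at in its place the means were 0.92 ± 0.31 and 0.49 ± 0.23, and with 1555689_at 0.64 ± 0.27 and 0.31 ± 0.17. The gap to CD86 210895_s_at was above 0 in each batch with each CD80 probe set. It was not tested, and most of it came from the fall of CD86. The other CD86 probe sets fell less. After LPS in batch 1, CD80 1555689_at was at −0.22 and CD86 205686_s_at at −0.18, so this pair had the reverse order there.

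**Figure D2:**
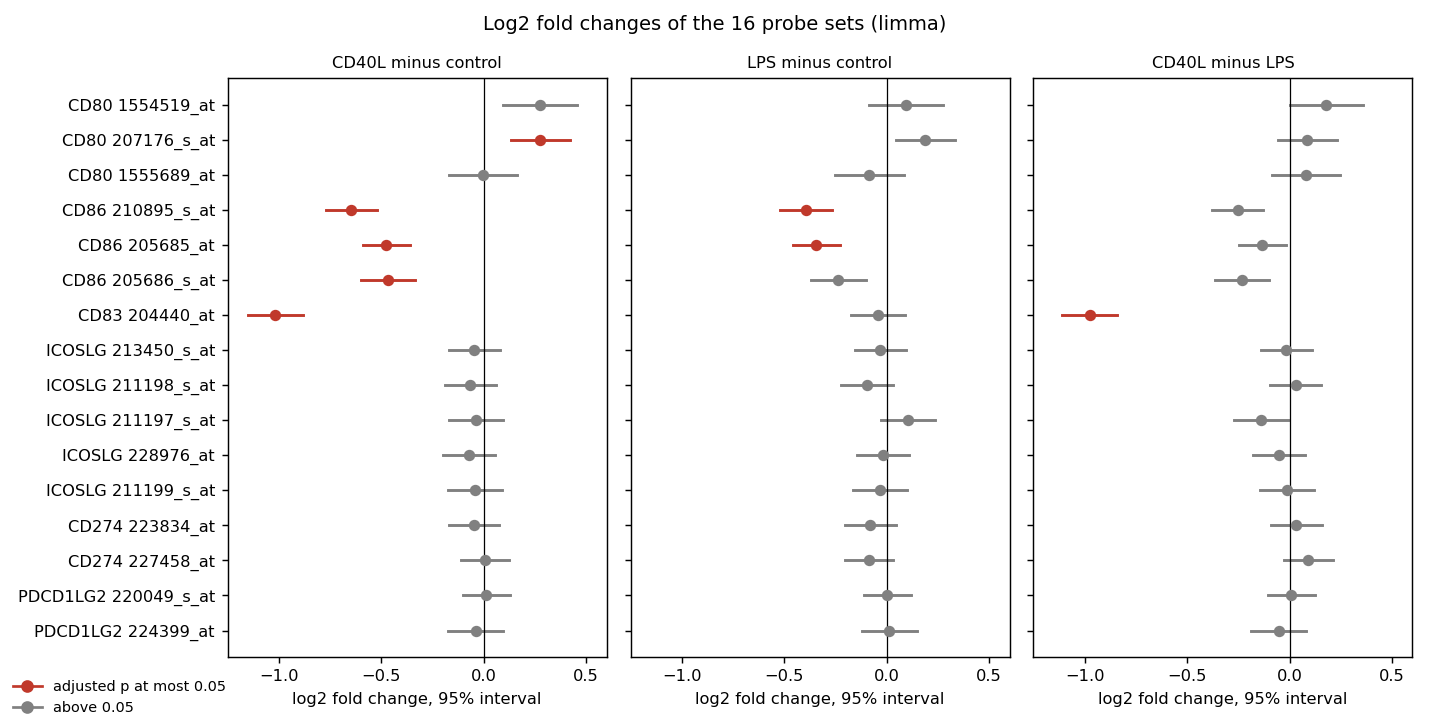
Log2 fold change with its 95% interval (limma, batch as a term) for each of the 16 probe sets in the comparisons of CD40L with control, LPS with control and CD40L with LPS. Red marks an adjusted p of at most 0.05. For CD40L with control these are CD83 at −1.02, the 3 CD86 probe sets, and CD80 207176_s_at at 0.28. For LPS with control they are CD86 210895_s_at and 205685_at, and for CD40L with LPS only CD83 at −0.98. The 9 probe sets of ICOSLG, CD274 and PDCD1LG2 lie near 0.

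The other ligands were not called in any comparison. Levels of the 5 ICOSLG probe sets ranged between 6.33 and 7.28 over all arrays, those of the 2 CD274 probe sets between 6.06 and 6.48, and those of the 2 PDCD1LG2 probe sets between 6.06 and 6.32. CD274 and PDCD1LG2 thus lay near or below the array medians, where the scale is flat and a small change in mRNA cannot be seen. For CD40L minus control the 95% intervals of these 9 probe sets stayed within −0.20 to 0.13, for LPS minus control within −0.22 to 0.23, and for CD40L minus LPS within −0.27 to 0.21. None of these intervals reached the size of the change in CD83 after CD40L. On the flat part of the scale, where CD274 and PDCD1LG2 lie, the intervals do not bound the change in mRNA.

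ICOSLG 213450_s_at, the brightest of its gene, had 7.10, 7.14 and 7.28 after CD40L, 7.16, 7.21 and 7.19 after LPS, and 7.20, 7.25 and 7.20 in control cells. All 3 conditions overlapped. On ICOSLG 211197_s_at the levels were 6.879, 6.856 and 6.923 after CD40L, 7.004, 7.096 and 6.976 after LPS, and 7.005, 6.831 and 6.931 in control cells, so that the CD40L arrays lay below the LPS arrays. The log2 fold change for CD40L minus LPS was −0.14 (adjusted p = 0.954). Over all probe sets, 2222 had their CD40L arrays below their LPS arrays in this way. The 5 ICOSLG probe sets correlated with each other between −0.21 and 0.74 across the 9 arrays after subtraction of each batch's mean.

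CD274 223834_at had 6.32, 6.39 and 6.39 after CD40L, 6.32, 6.41 and 6.28 after LPS, and 6.30, 6.48 and 6.46 in control cells. The second CD274 probe set, 227458_at, had 6.19, 6.31 and 6.17 after CD40L, 6.06, 6.22 and 6.11 after LPS, and 6.12, 6.36 and 6.17 in control cells. On both the conditions overlapped. PDCD1LG2 220049_s_at ranged from 6.25 to 6.32 after CD40L, from 6.25 to 6.29 after LPS and from 6.24 to 6.28 in control cells. The conditions could not be told apart on PDCD1LG2 224399_at either, with 6.06 to 6.16 after CD40L, 6.14 to 6.21 after LPS and 6.07 to 6.29 in control cells.

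**Figure D3:**
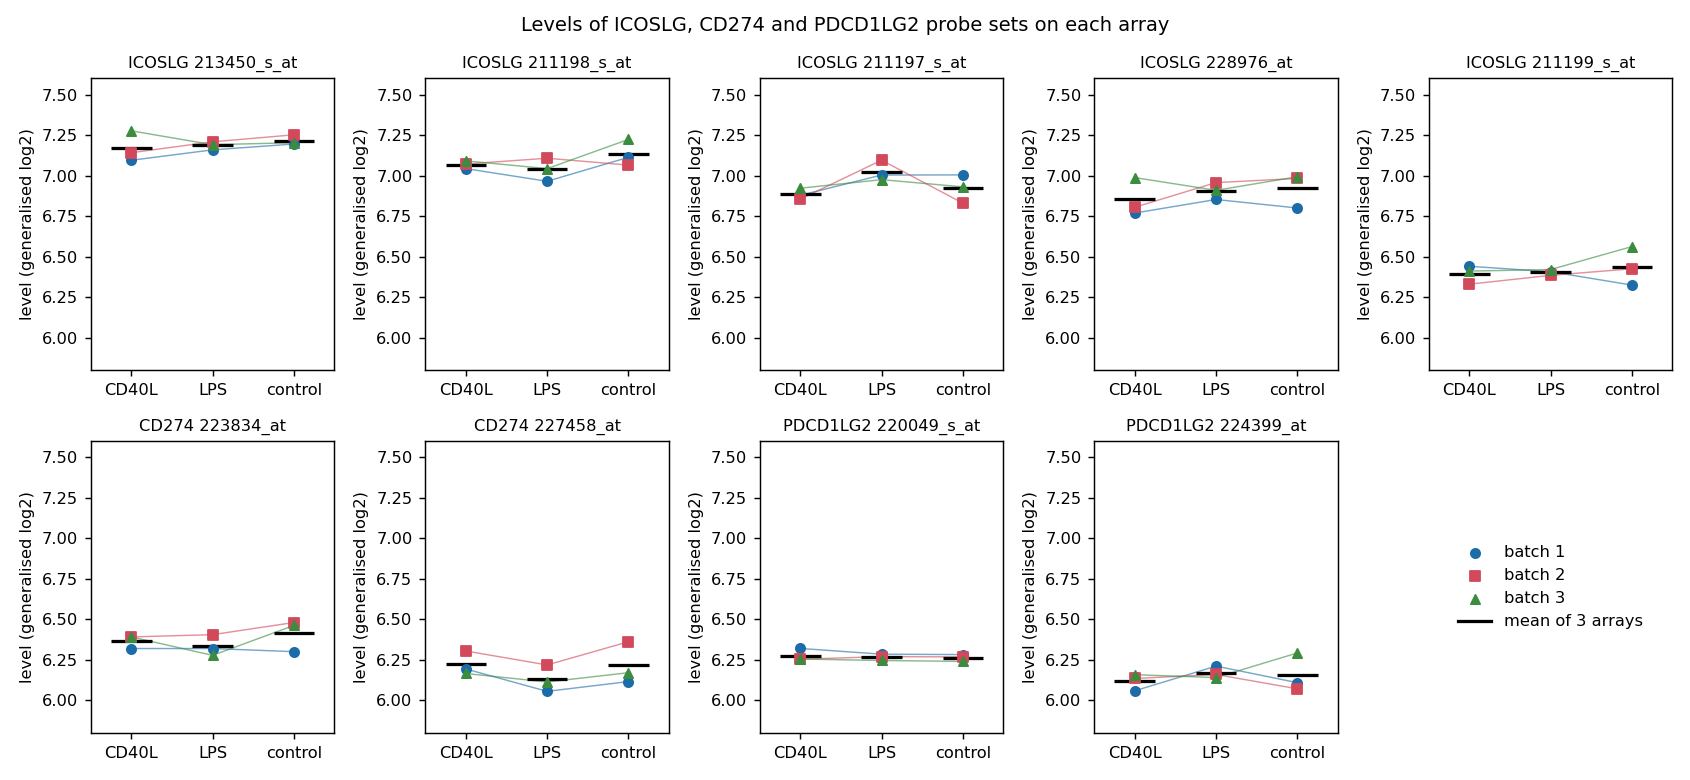
Level (generalised log2) of each ICOSLG, CD274 and PDCD1LG2 probe set on each of the 9 arrays by condition, on 1 common axis. Points are arrays, lines join arrays of 1 batch and bars are means of 3 arrays. All values lie between 6.06 and 7.28, with no called difference.

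The remaining genes of the costimulatory system are given by lists, each gene measured by its brightest probe set. Of the other B7 family ligands CD276, VTCN1, VSIR, NCR3LG1, HHLA2 and ILDR2, 0 of 6 were called in any comparison. HHLA2 (mean level 6.08), VTCN1 (6.14) and VSIR (6.40) lay below the median probe set, where a small change in mRNA cannot be seen. Of the receptors of B7 ligands, 0 of the 5 measured (CD28, CTLA4, ICOS, RGMB and TMIGD2) were called. CD28 and ICOS had mean levels of 6.43 and 6.18, also below the median probe set. Of 8 genes that act on turnover and traffic of these ligands, among them MARCHF1, the ubiquitin ligase that removes CD86 from the surface, 0 were called. The log2 fold change of MARCHF1 after CD40L was −0.20 (SE 0.065, adjusted p = 0.0984) at a mean level of 6.23. Measured instead by the probe set of largest change, 1 of the 8 was called lower after each stimulus.

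The costimulatory ligands of the TNF superfamily act beside the B7 molecules through receptors on T cells. After CD40L, 2 of 7 rose and 1 fell. TNFSF4 (OX40L) rose by 0.72 (SE 0.056, limma adjusted p = 8.9e-07) and CD70, the ligand of CD27, by 0.27 (SE 0.063, adjusted p = 0.0179). TNFSF8 (CD30L) fell by 0.29 (SE 0.079, adjusted p = 0.0429) and was called lower on 2 of its 3 probe sets. After LPS, 1 of 7 was called: TNFSF4 rose by 0.38 (SE 0.056, adjusted p = 0.00171). TNFSF4 and CD70 were also higher after CD40L than after LPS, by 0.34 (adjusted p = 0.0105) and 0.35 (adjusted p = 0.0181). The median log2 fold change of the 7 was 0.013 for CD40L, −0.081 for LPS and 0.034 between CD40L and LPS, beside the medians over all probe sets given above. The same arrays that showed lower CD83 and CD86 after CD40L thus showed higher TNFSF4 and CD70.

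Transcription factors with known roles at these genes moved in both directions. After CD40L, 4 of 15 measured rose: BATF (1.06, limma adjusted p = 9e-08), a partner of IRF4 at composite sites, NFKB2 (1.01, adjusted p = 1.09e-07) and RELB (0.52, adjusted p = 0.000569), which form the noncanonical NF-κB dimer, and IRF4 (0.46, adjusted p = 0.00176). The 3 that fell were IRF8 (−0.92, adjusted p = 5.67e-07), a factor of germinal centre B cells, BCL6 (−0.47, adjusted p = 0.00021), the repressor that maintains the germinal centre state, and REL (−0.33, adjusted p = 0.00369), a canonical NF-κB subunit. After LPS, BATF (0.70), IRF4 (0.58) and RELB (0.43) rose and IRF8 (−0.43) and BCL6 (−0.31) fell, with adjusted p of 5.67e-05 to 0.0144. NFKB2 was 0.24 after LPS (adjusted p = 0.0701). Among genes with several probe sets, NFKB2 and BCL6 were called on 2 of 3 after CD40L, IRF4 on 1 of 3 and REL on 2 of 5. After LPS, IRF4 and BCL6 were each called on 1 of 3. BATF, RELB and IRF8 have 1 probe set each. In the direct comparison NFKB2 (0.77, adjusted p = 1.57e-05) and BATF (0.36, adjusted p = 0.0181) were higher, and IRF8 (−0.50, adjusted p = 0.00226) lower, after CD40L than after LPS. The median log2 fold change of the 15 was 0.15 for CD40L, 0.067 for LPS and 0.076 between the stimuli.

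Of 12 measured genes that sense the stimuli, 3 were called lower after CD40L: TLR4, the LPS receptor (−0.26, limma adjusted p = 0.0423), its homologue CD180 (−0.24, adjusted p = 0.0165) and the CD40 adaptor TRAF5 (−0.23, adjusted p = 0.0447). TLR4 was called on 1 of its 4 probe sets and TRAF5 on 1 of its 2, while CD180 has 1. None of the 12 was called after LPS or between the stimuli. The medians of the 12 were −0.037, −0.040 and −0.029 for CD40L, LPS and CD40L minus LPS. CD40 itself had a mean level of 8.94 and log2 fold changes of −0.034 after CD40L (adjusted p = 0.891) and −0.014 after LPS (adjusted p = 0.976).

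**Figure D4:**
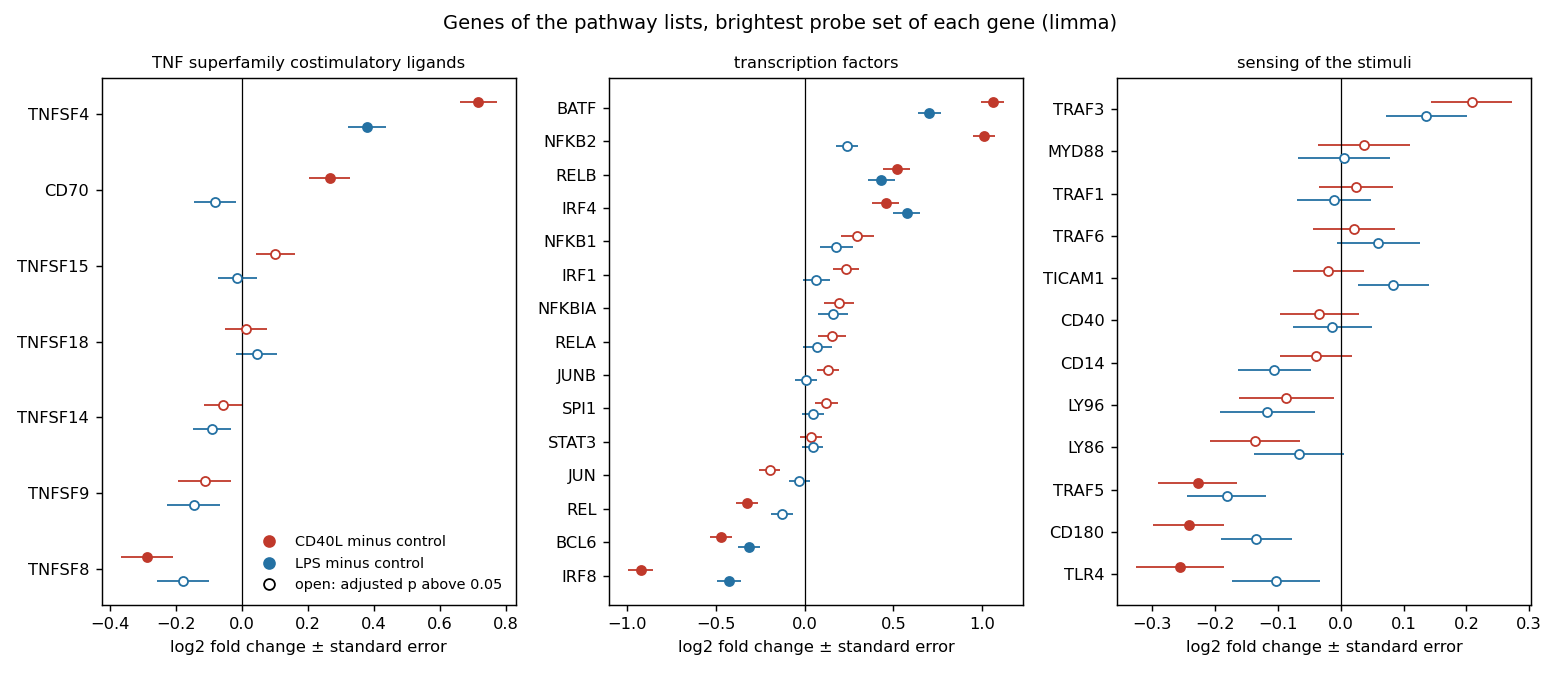
Log2 fold change with its standard error (limma) of the TNF superfamily costimulatory ligands, the transcription factors and the genes sensing the stimuli, for CD40L minus control (red) and LPS minus control (blue). Filled points have an adjusted p of at most 0.05. TNFSF4, BATF, NFKB2, RELB and IRF4 lie right of 0 after CD40L, and IRF8, BCL6 and REL lie left of it.

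Several other genes used as markers of B cells were also lower after CD40L, as CD83 and CD86 were. Some were lower after LPS, where CD86 but not CD83 was called lower. Of 8 measured markers of B cells and germinal centre B cells, 6 were called lower after CD40L (CD38, MME, BCL6, CD22, CD79A and CD79B), 4 after LPS (CD38, MME, BCL6 and CD79A) and 1 for CD40L minus LPS (CD38). The 8 markers had mean levels of 8.83 to 13.0, and their median log2 fold change was −0.45 for CD40L, −0.26 for LPS and −0.16 between the stimuli. BCL6 is also on the list of transcription factors. After CD40L, CD79B was called on 1 of its 3 probe sets, BCL6 on 2 of 3 and CD22 on 3 of 4. After LPS, MME was called on 1 of 2 and BCL6 on 1 of 3. The other called markers were called on every probe set they have. CD38, an ectoenzyme of germinal centre and plasma cells, fell by 0.65 after CD40L (limma adjusted p = 9.61e-06) and MME (CD10) by 0.53 (adjusted p = 6.79e-05). MS4A1 (CD20), at a mean level of 13.0, had a log2 fold change of −0.036 after CD40L (adjusted p = 0.883). PAX5, the B cell identity factor, had log2 fold changes of 0.39 after CD40L (SE 0.13, adjusted p = 0.107) and 0.31 after LPS (SE 0.13, adjusted p = 0.339), opposite in sign to the called markers. The mean level over the 8 markers was 10.27 to 10.31 after CD40L, 10.38 to 10.45 after LPS and 10.55 to 10.65 in control cells, in the same order as CD86. The part of this shift in the values of CD83 and CD86 was not tested.

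Markers of monocytes, macrophages and dendritic cells, which also carry these ligands, were mostly low. Of 8 measured markers of monocytes, macrophages and dendritic cells, 1 had a mean level at or above the median probe set and 0 were called. CD14 was at 6.20 and LAMP3, a marker of mature dendritic cells, at 6.09. The mean over that list was 6.21 to 6.29 after CD40L, 6.22 to 6.24 after LPS and 6.21 to 6.24 in control cells. The markers of T and NK cells (8 measured) and of fibroblasts (5 measured) had 0 calls too by the brightest probe set. Of these, 4 and 2 had a mean level at or above the median probe set. The fibroblast marker COL1A1 had a mean level of 7.94 and a log2 fold change of −0.14 after CD40L (limma adjusted p = 0.218). However, 2 of its 5 probe sets were called higher after CD40L. These values are bulk means, in which fewer cells with the mRNA and less mRNA per cell cannot be told apart.

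The genes whose pattern over the 9 arrays was most like that of the called member probe sets are given as a description, after subtraction of each batch's mean and among 23085 probe sets of other genes at or above the median level. For CD86 210895_s_at they were CAB39L (r = 0.996), MGARP (0.99) and ZC4H2 (0.99). For CD83 they were LPAR2 (0.98), PTTG3P (0.97) and CD27 (0.97), of which CD27, the receptor of CD70, fell by 0.59 after CD40L (limma adjusted p = 5.13e-05) and was lower after CD40L than after LPS (−0.48, adjusted p = 0.00261). The log2 fold changes of LPAR2 (−0.13) and PTTG3P (−0.11) after CD40L were far smaller than that of CD83, since a correlation ignores the size of a change. For CD80 207176_s_at they were BCAP29, PJVK and ANAPC10 (0.99 each). With the batch mean kept, 1 of the 3 names was shared for each gene, LPAR2, CAB39L and PJVK. The 9 points of such a correlation share their 3 conditions, so the value mostly reflects the order of the condition means.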

How the data were processed

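Background correction and variance stabilising normalisation (vsn) of the probe intensities, with median polish for each probe set, were done by the authors. Their deposited generalised log2 values were used unaltered. Each condition (CD40L, LPS, control) had 3 arrays. The table held 54675 probe sets, of which 62 AFFX controls were not tested. By the platform annotation 41091 probe sets name 1 gene, 1801 several and 11721 none here. Symbols were checked through the Entrez identifier against the GRCh38.p14 gene table, which held 41037, and 0 changed. Promoter windows come from RefSeq and were matched by symbol for 5 of 6 genes.

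Differences were fitted with limma 3.58.1 (lmFit, eBayes) in R 4.3.3 to the 9 arrays together. Condition and batch were terms of the model, as the study's methods model the experimental batches. The sample names number them, so arrays of the same number are paired, and the study treats the batches as independent experiments. Arrays of the same number deviated from their group means with an average correlation of 0.217, and arrays of different numbers with −0.109. Deviations within a group cancel out, so the value for different numbers largely follows from that for the same number. In batch 2 the correlation with control was −0.181 for CD40L and −0.0401 for LPS, and the other 7 pairs had 0.183 to 0.466. Residual degrees of freedom were 4, and eBayes added a prior of 11.6. Tests were two-sided with Benjamini-Hochberg adjustment over 54613 probe sets and a threshold of 0.05. An exact permutation test of 3 against 3 arrays that ignores the batches cannot go below p = 0.1. Permuting within batches allows fewer arrangements still, so neither was used. The fit was tested on simulated data. The number of arrays limits the precision.

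All probe sets of the members are named. Of each list, up to 4 called genes with the largest change in a contrast are named by the brightest probe set, and for each member with a call against control the 3 genes most like it. Other genes named from the lists were chosen after their values were seen. The members and lists were chosen with earlier results of these data known. Alternatives were no batch term, the batch as a random effect (statmod 1.5.0), quantile normalization, a filter on dim probe sets, median centring, a fit of only the 2 groups compared, AFFX probe sets kept, an intensity trend with robust eBayes, each replicate number or array left out, and, for lists, the probe set of largest change.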

Additional observations from a re-analysis of the deposited data

How the results depend on the processing

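No called value of a member changed direction under the 20 alternatives. The calls of CD83 (CD40L minus control and CD40L minus LPS), of the 3 CD86 probe sets after CD40L and of CD86 210895_s_at after LPS were kept in all 20. Beyond the losses and gains given for CD80 and CD86 above, 205686_s_at after LPS was called with quantile normalization (−0.26, adjusted p = 0.0328), CD80 1554519_at after CD40L (0.37, adjusted p = 0.00185) and 207176_s_at after LPS (0.26, adjusted p = 0.0401) without control replicate 2, and for CD40L minus LPS CD86 210895_s_at without replicate 2 (adjusted p = 0.0385) or control replicate 2 (adjusted p = 0.0168) and 205686_s_at without replicate 2 (adjusted p = 0.0245). Values not called changed sign in 1 case under other settings, 17 with a replicate number left out and 28 with 1 array left out. CD274, PDCD1LG2 and ICOSLG 211199_s_at have no value with the filter on dim probe sets.

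The number of members called for LPS minus control, 2, lay between 1 and 3 with replicates left out, and that for CD40L minus LPS, 1, between 1 and 3, and was 3 with only the 2 groups compared. Over all probe sets, 3049 were called for CD40L minus control, 1124 for LPS minus control and 216 for CD40L minus LPS. Without the batch as a block (no paired arrays) these were 1446, 322 and 73, and with the batch as a random effect 1789, 495 and 97. With only the 2 groups compared, 1798 were called for CD40L minus control and 548 for CD40L minus LPS. With replicates left out they ranged over 1330 to 3316, 262 to 1361 and 34 to 486. The cause was not tested; settings that leave out arrays or a group also have fewer samples. Quantile normalization moved the split of CD40L calls to 1707 higher and 1694 lower, against 2027 and 1022, and without replicate 2 it was 1203 higher and 1302 lower. For LPS, with 637 higher and 487 lower, lower calls outnumbered higher ones under quantile normalization (775 higher, 870 lower), without the batch term (156 and 166), with the batch as a random effect (247 and 248) and without replicate 2, LPS replicate 1, LPS replicate 3 or control replicate 2 (514 and 722 without the last). By the probe set of largest change, B cell markers lower in LPS minus control were 5 in place of 4 and in CD40L minus LPS 2 in place of 1, and 1 T and NK cell marker (CD40L minus control) and 1 fibroblast marker (CD40L minus control and CD40L minus LPS) were called higher. Low signal limits what the arrays can show of CD274 and PDCD1LG2.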
